A study of Mus musculus with 63 samples.

Results

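The respiratory chain genes of the cell nucleus were followed through the hearts of 8 inbred mouse strains. Members were taken by symbol: every gene of the count table whose symbol begins with Nduf, Uqcr, Cox4 to Cox8 or Atp5, and in addition Cyc1, Sdhb, Sdhc and Sdhd, leaving out symbols marked as pseudogenes. The rule found 90 of the 19220 genes in the table. By known function they fall into 36 genes of complex I, 3 of complex II, 9 of complex III, 18 of complex IV, 15 of complex V and 9 assembly factors, which help to build a complex without being part of it. The members lie on 19 chromosomes, and all 90 had enough counts to be tested. The rule uses names only and no measured value enters it, but it was proposed with earlier results of these data known. It does not take in every subunit: Sdha of complex II is outside it.

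The hearts came from inbred founders of the Diversity Outbred mice. With 8 libraries each these were 129, AJ, B6, NOD, NZO, PWK and WSB, and Cast had 7. All mice ate a diet high in fat and sugar with 45% fat, so the strains differ in genotype and share the diet, and no group on another diet was analysed here. The labels read here give no sex or age. A library's name joins strain and number (WSB_1), each was taken as 1 mouse, and the p-values measure only the spread between these libraries, which could be partly technical. The depth of a library lay between 21.79 M and 42.95 M estimated counts (median 30.42 M). Levels are given as CPM, counts relative to the library total, scaled by the trimmed mean of M-values (TMM). In whole heart tissue, fewer cells of a type and less RNA per cell cannot be told apart. The counts are on GRCm38, and the sources used here do not say how sequence differences between strains were handled. Their part in the strain differences below was not tested.

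The respiratory chain sits in the inner mitochondrial membrane. Complexes I and II feed electrons from NADH and succinate into ubiquinone, complex III passes them to cytochrome c, complex IV hands them to oxygen, and complex V, the ATP synthase, uses the proton gradient built on the way to make ATP. Each complex other than II combines subunits encoded in the nucleus with a few encoded in the mitochondrial genome. The heart, which beats on ATP from mitochondria, is among the tissues richest in these proteins, and for several complex IV subunits striated muscle uses an isoform of its own.

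One library stood apart in the members before any strain comparison. In WSB_1 the 81 subunit genes (all members but the assembly factors) had a median deviation of 0.66 log2 units from their strain means. The other 62 libraries lay between -0.18 and 0.28. Over all genes whose log2 CPM averaged 3 or more, the median absolute deviation was 0.50 in WSB_1 and 0.05 to 0.17 elsewhere. The deviation in WSB_1 moved with transcript length. Genes outside the members with transcripts under 1 kb were 0.58 above the strain mean there, and those over 4 kb had a median deviation of -0.43. Members under 1 kb had a median deviation of 0.895 in WSB_1, those of 1 to 2 kb one of 0.03, and those of 2 to 4 kb one of -0.21. Short members dominate: 56 of the 90 have transcripts under 1 kb.

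Summed complex IV stood at 9452 CPM in WSB_1 and at 4813 to 5639 in the other WSB libraries, and summed complex I at 11070 against 6868 to 7843. Ndufs1, the largest core subunit of complex I and a long transcript among the members, stood at 222.5 CPM in WSB_1, below every other WSB library (lowest 647.1). Cell type markers also differed in this library. The 15 cardiomyocyte markers summed to 62010 CPM in WSB_1 and to at least 81070 in every other library, and the 6 endothelial markers to 2151 CPM, with at most 1282 elsewhere. The part of cell makeup and of RNA quality in the values of WSB_1 was not tested. The counts of members called in a strain are therefore given with and without WSB_1.

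**Figure D1:**
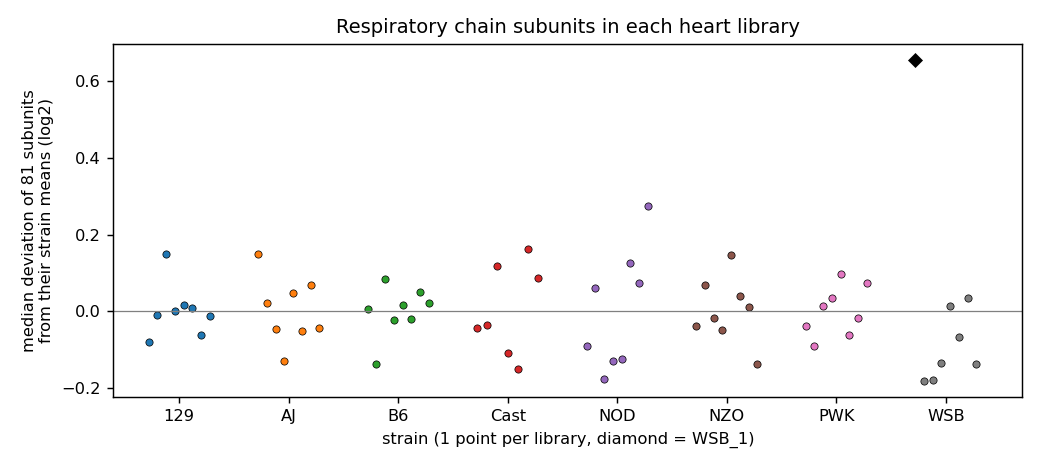
Median deviation of the 81 subunit genes from their own strain means (log2, vertical axis) in each of the 63 libraries, by strain; the diamond is WSB_1. WSB_1 lies at 0.66, and the other 62 libraries lie between -0.18 and 0.28.

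As a group the members differed little between strains. The range from the lowest to the highest strain mean had a median of 0.35 log2 units over the 90 members. It was 0.78 over all 16425 genes tested. Over the 7917 genes between the members' 5th and 95th percentile of mean log2 CPM it was 0.50. This window is wide, and the genes in it were not matched to the members' levels. Only 5.56% of members ranged over more than 1 log2 unit, compared with 15.4% of genes in this window, while 71.1% ranged over less than 0.5, compared with 50.7%. These are descriptions with WSB_1 included, and there was no test between the sets.

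Small as they were, the differences between strain means passed the test for most members. In edgeR's quasi-likelihood test over all 8 strains, 78 of the 90 members passed an adjusted p of 0.05 (Benjamini-Hochberg over all genes tested), as did 89.4% of all genes. Without WSB_1 the counts were 84 members and 92.3% of all genes. The members' count was close to the background with all libraries and without WSB_1. With all 63 libraries, strain accounted for a median of 0.31 of a member's variance (adjusted R squared), and 0.44 over all genes. Both values include WSB_1, where short members deviated most, and were not computed without it.

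Each strain was then compared with the unweighted mean of the other 7 in the same edgeR fit, so the 8 comparisons share libraries. WSB had the most members past the test in one direction: 51 of 90 were higher, with 25.1% of all genes higher, and 2 were lower (background 19.9%). The median member changed by 0.18 log2 units in WSB, and the median gene by 0.02. This count rested on WSB_1. Without it 24 members were higher in WSB (background 23.1%) and 6 lower (background 20.4%), the median member stood at 0.05, and 22 of the 24 were among the 51.

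B6 leaned the other way. There 21 members were lower (background 14.7%) and 4 higher (background 17.5%), with a median change of -0.07. Without WSB_1, 32 members were lower in B6 (background 17.7%) and 6 higher (background 20.2%), at a median of -0.05. The lower members were spread over the complexes: without WSB_1 they were 14 of 36 in complex I, 7 of 18 in complex IV, 4 of 15 in complex V and 3 of 9 in complex III. Short genes outside the members moved the same way in B6. Without WSB_1, members under 1 kb had a median change of -0.09 and other genes under 1 kb one of -0.05.

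NZO also had more members lower than higher. In NZO 16 were lower (17.8%, background 18.5%) and 8 higher (8.9%, background 22.1%). The share of lower members was thus just below the background with all libraries. Without WSB_1 25 were lower (27.8%, background 21.6%) and 10 higher (11.1%, background 25%). Short genes outside the members did not move with them in NZO: without WSB_1 the members under 1 kb had a median change of -0.055 and other genes under 1 kb one of 0.03.

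AJ had 14 members higher (background 20.6%) and 6 lower (background 17.9%), both shares below the background, and without WSB_1 27 higher (background 23.6%) and 8 lower (background 20.7%). Complex I supplied 14 of those 27. Other genes under 1 kb stood at a median of 0.08 in AJ without WSB_1, and members under 1 kb at 0.05.

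The wild-derived strains Cast and PWK had members past the test in both directions. With all libraries each share of members lay below the background. Cast had 20 members higher (22.2%, background 30.6%) and 23 lower (25.6%, background 29.3%). Without WSB_1 it had 27 higher (30%, background 33.1%) and 30 lower (33.3%, background 31.1%). The libraries Cast_1, Cast_5 and Cast_6 had the largest median absolute deviations after WSB_1, at 0.17, 0.15 and 0.15. Without these 3, added after the data were seen, 27 members were higher in Cast (background 22.4%) and 6 lower (background 23.2%). PWK had 16 members higher (17.8%, background 27%) and 22 lower (24.4%, background 26.7%). Without WSB_1 it had 21 higher (23.3%, background 29.6%) and 28 lower (31.1%, background 28.7%).

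The remaining strains had few members past the test. In 129, 7 were higher (background 16.8%) and 12 lower (background 14.4%), and without WSB_1 15 higher (background 20.3%) and 12 lower (background 17.1%). In NOD, 9 were higher (background 19%) and 7 lower (background 13.5%), and without WSB_1 10 higher (background 21.7%) and 9 lower (background 16.9%). All 4 of these shares lay below the background in NOD, and all 4 in 129.

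Because many members are short, the strain counts were also made with a correction for transcript length in each library, added after the data were seen. WSB then had 39 members higher (background 26.7%) and 5 lower (background 19.6%) at a median change of 0.075, and without WSB_1 35 higher (background 22.2%) and 11 lower (background 22.5%) at 0.04. B6 had 10 higher (background 19.1%) and 22 lower (background 14.4%) at a median of -0.015, and without WSB_1 12 higher (background 22.1%) and 26 lower (background 16.7%). NZO had 10 higher (background 22.8%) and 39 lower (background 19.2%) at a median of -0.08, and without WSB_1 12 higher (background 25.8%) and 46 lower (background 21.4%). In these 3 strains the larger count stayed on the same side as without the correction.

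The balance turned over in AJ, Cast and PWK, so the direction of their counts depends on this setting. With the correction AJ had 13 members higher (background 20.4%) and 23 lower (background 18.4%), and without WSB_1 15 higher (background 23%) and 31 lower (background 20.7%). Cast had 35 higher (background 30.6%) and 25 lower (background 30.2%), and without WSB_1 40 higher (background 33.4%) and 27 lower (background 31.6%). PWK had 28 higher (background 26.5%) and 25 lower (background 27.8%), but without WSB_1 29 higher (background 29%) and 31 lower (background 29.7%). In 129 the counts were 12 higher (background 16.9%) and 22 lower (background 16%), and without WSB_1 16 higher (background 20.1%) and 23 lower (background 18.1%), where the uncorrected counts without WSB_1 had more members higher. NOD had 16 higher (background 20.5%) and 11 lower (background 12.9%), and without WSB_1 20 higher (background 23.8%) and 14 lower (background 15.3%).

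**Figure D2:**
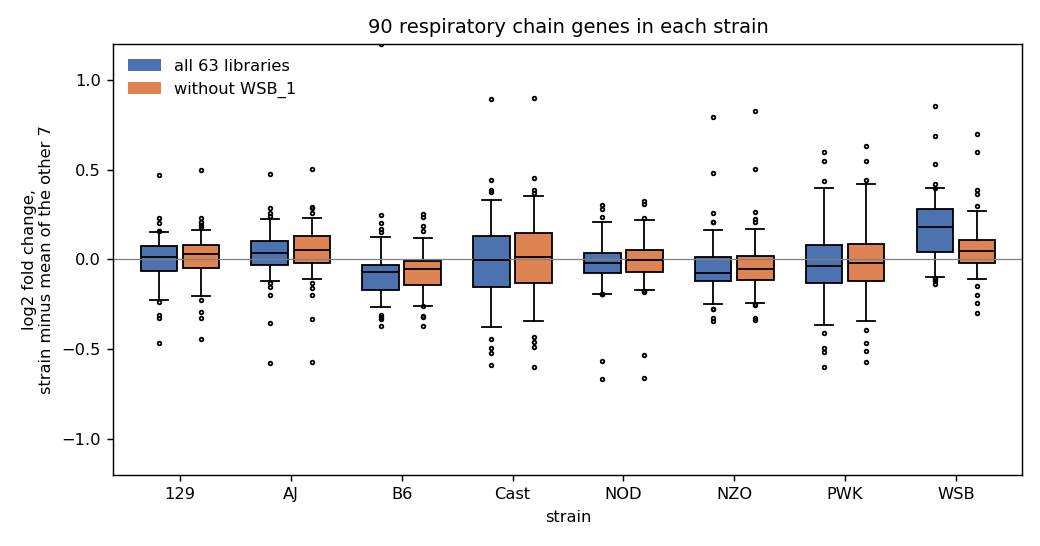
Log2 fold change of the 90 members in each strain relative to the mean of the other 7 (vertical axis), with all 63 libraries (blue) and without WSB_1 (orange). Boxes show the quartiles and the median, whiskers the 5th and 95th percentiles and points the members beyond them, and 25 values lie beyond the axis. The WSB box sits at a median of 0.18 with WSB_1 and 0.05 without it.

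Complex I, the NADH dehydrogenase, holds 36 members. Among its core subunits, which carry the flavin and most iron-sulfur clusters, the strain means ranged over 0.23 log2 units for Ndufs1 0.40 for Ndufv1, the subunit that binds NADH, and 0.63 for Ndufs8, an iron-sulfur subunit and the widest of the core. Ndufs8 was 0.40 ± 0.06 higher in WSB (edgeR adjusted p = 6.62e-07), and 0.24 higher without WSB_1 (adjusted p = 4.86e-05). Ndufv1 had a median of 522 CPM in 129 (lowest 509, highest 603), 393 in Cast (371 to 464.6) and 414.5 in PWK (389.9 to 437.9). The libraries of 129 lay above all of Cast and PWK. Ndufv1 was higher in 129 by 0.23 ± 0.04 log2 units (SE; edgeR adjusted p = 1.22e-06) and changed by -0.23 ± 0.04 in Cast (edgeR adjusted p = 3.72e-06).

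Accessory subunits surround this core. The 29 among the members had a median range of 0.36 log2 units (0.21 to 1.51), and the 7 core subunits one of 0.24 (0.21 to 0.63), a description with no test. These ranges include WSB_1 and were not computed without it. The upper end of 1.51 is Ndufb4, whose range fell to 0.43 in the sum with its copy described below. Ndufs5, an accessory subunit, lies on chromosome 4, and its level had a median of 146 CPM in 129 (131 to 158) and 76.45 in Cast (67.3 to 92.9). All 8 libraries of 129 were above all 7 of Cast. It was 0.47 ± 0.07 higher in 129 (edgeR adjusted p = 4.67e-07) and stood at -0.52 ± 0.09 in Cast (edgeR adjusted p = 3.58e-07). Its call in WSB, 0.18 higher at an adjusted p of 0.041 in edgeR, was lost without WSB_1 (-0.03, adjusted p = 0.6).

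Ndufc2, a subunit of the membrane arm, divided the strains. Its medians were 108 CPM in WSB, 101 in AJ, 92.8 in 129 and 92.45 in NOD, and 65.55 in B6, 67.9 in NZO, 75.9 in PWK and 76.3 in Cast. The WSB libraries (93.75 to 125) all lay above those of B6 (60 to 76.9) and NZO (62.8 to 72.5). Ndufc2 changed by -0.37 ± 0.05 in B6 (edgeR adjusted p = 9.34e-10) and by -0.34 ± 0.05 in NZO (adjusted p = 8.1e-09). It was 0.42 ± 0.04 higher in WSB (edgeR adjusted p = 1.36e-12), and 0.39 higher without WSB_1 (adjusted p = 1.64e-11).

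Ndufb9, another accessory subunit of the membrane arm, separated PWK from every other library. It lies at chr15:58933810-58939489 on the plus strand of GRCm38. In PWK its median was 191 CPM (177 to 204), and in the other strains the lowest library stood at 223 CPM. The change in PWK was -0.49 ± 0.07 (edgeR adjusted p = 1.33e-08), with no overlap. Ndufb9 was higher in WSB by 0.33, and by 0.16 without WSB_1 (edgeR adjusted p = 0.00215). Ndufa3, a small subunit, had its highest median in WSB at 121 CPM (94.97 to 275, with 275 in WSB_1) and its lowest in Cast at 77.9 (58.2 to 96.7). It remained higher in WSB without WSB_1, by 0.30 against 0.53 with it (adjusted p = 3.62e-05 in edgeR). Its position overlaps that of Tfpt, and reads shared between overlapping genes cannot be told apart where strand use is unknown. The same holds for Ndufs1, Cox4i1, Cox6a2, Ndufa4l2, Ndufaf2 and Atp5a1 among the members described here.

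Ndufb4 appeared to be far above all other strains in PWK, at a median of 124 CPM (116 to 132) while the other libraries reached at most 81.7. The difference of 1.28 ± 0.05 log2 units (edgeR adjusted p = 3.61e-33) was the widest in complex I. It did not hold once reads of a near-identical copy were added. Gm3244, a processed pseudogene at chr15:73809507-73809896, is identical to Ndufb4 over all 390 coding bases of the reference. Gm3244 took between 62.8 and 85 CPM in the other 7 strains and 0.0111 CPM in PWK. The sum of both had a range of 0.43 log2 units over the strains, with 124 CPM in PWK, and a change of 0 there (edgeR adjusted p = 0.999). The first 60 coding bases of both genes, from GENCODE M21 transcripts on GRCm38, are shown in lower case because no base differs.
Ndufb4: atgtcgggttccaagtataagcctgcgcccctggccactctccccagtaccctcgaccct
Gm3244: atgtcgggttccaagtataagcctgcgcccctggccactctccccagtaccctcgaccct

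Complex II, succinate dehydrogenase, belongs both to the chain and to the tricarboxylic acid cycle. Its 3 members here are the iron-sulfur subunit Sdhb and the membrane anchors Sdhc and Sdhd. Sdhc had a median of 262 CPM in Cast (226.5 to 273), 323 in B6 (284 to 350) and 410 in NOD (369.5 to 480). No library of Cast reached those of B6, and B6 in turn lay below all of NOD. The change in Cast was -0.59 ± 0.05 (edgeR adjusted p = 1.28e-15), in B6 -0.20 ± 0.05 (adjusted p = 0.000564) and in NOD 0.24 ± 0.05 higher (adjusted p = 1.99e-05). The only library near the Cast level was WSB_1, at 250 CPM, and the next WSB library stood at 353. Sdhb changed by -0.25 ± 0.05 in PWK (edgeR adjusted p = 6.21e-06), at a median of 372 CPM there, and passed in no other strain with all libraries. Without WSB_1 it also passed in AJ (0.11 higher, adjusted p = 0.0181). Sdhd was higher in AJ by 0.21 ± 0.07 (adjusted p = 0.0065) and passed in no other strain with all libraries. Without WSB_1 it also passed in Cast (-0.13, adjusted p = 0.012).

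Complex III, the cytochrome bc1 complex, was led by Uqcrc1, one of its large matrix-side core proteins (chr9:108936633-108949623, plus strand). Its median was 992 CPM in Cast (952 to 1044) and 638 in PWK (606.5 to 711). All 7 Cast libraries were above all others, whose highest was 951.8 in NOD, just under the lowest Cast library at 952.3. Uqcrc1 was 0.39 ± 0.04 higher in Cast (edgeR adjusted p = 5.11e-12) and changed by -0.31 ± 0.04 in PWK (adjusted p = 6.88e-09). Uqcrfs1, the Rieske iron-sulfur protein, was also higher in Cast, by 0.24 ± 0.05 (adjusted p = 9.12e-05), at a median of 616 CPM (541 to 721). Cyc1, cytochrome c1, was among the steadiest members, with a range of 0.15 log2 units, and did not pass over all strains with all libraries (edgeR adjusted p = 0.165).

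**Figure D3:**
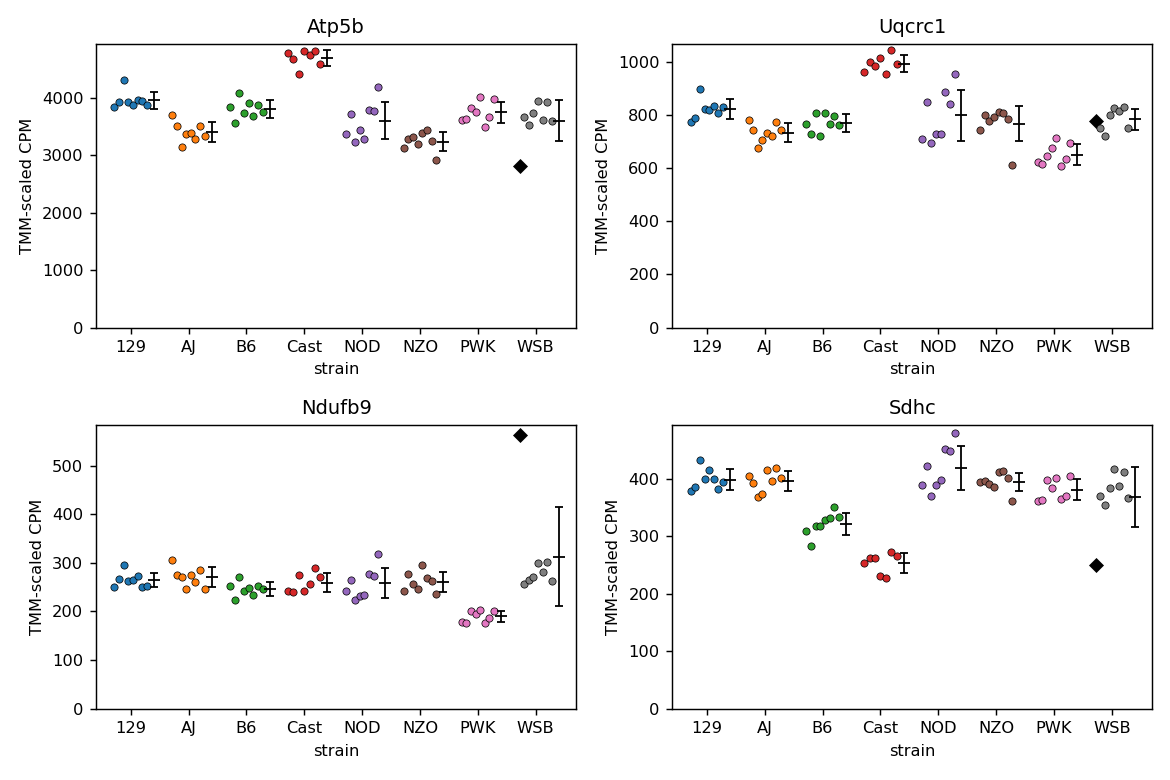
TMM-scaled CPM of Atp5b, Uqcrc1, Ndufb9 and Sdhc (vertical axes from 0) in each library by strain, with bars for the mean ± SD of each strain and a diamond for WSB_1. Atp5b and Uqcrc1 are highest in all Cast libraries, Ndufb9 is lowest in all PWK libraries, and Sdhc is low in Cast at 226.5 to 273 CPM.

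Complex IV, cytochrome c oxidase, has subunits with a general and a heart or muscle isoform, and Cox7a1 and Cox7a2 differed between strains in opposite directions. Cox7a1, the striated muscle isoform of subunit 7a (chr7:30184144-30186078, plus strand), had a median of 270.5 CPM in AJ (239 to 321), 242 in NOD (201 to 305) and 230 in B6 (192 to 249). It stood at 149 CPM in Cast (105 to 188) and 139 in PWK (122 to 164). All PWK libraries lay below all of AJ, NOD and B6, and so did all Cast libraries.

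Cox7a1 changed by -0.60 ± 0.09 in PWK (edgeR adjusted p = 7.14e-08) and -0.49 ± 0.10 in Cast (adjusted p = 1.16e-05), and was 0.47 ± 0.08 higher in AJ (adjusted p = 3.85e-06). Cox7a2, the general isoform (chr9:79755241-79759853, minus strand), went the other way. Its median was 256.5 CPM in Cast (236 to 282) and 254 in PWK (247 to 271), and 178 to 205 in 129, AJ, B6, NOD and NZO. It was 0.33 ± 0.06 higher in Cast (edgeR adjusted p = 3.77e-06) and 0.33 ± 0.06 higher in PWK (adjusted p = 1.62e-06).

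The log2 ratio of Cox7a1 to Cox7a2 within a library therefore put Cast and PWK apart. It averaged -0.84 ± 0.10 in PWK (SD, n = 8) and -0.76 ± 0.23 in Cast (SD, n = 7), so that Cox7a1 had 0.56 and 0.59 times the CPM of Cox7a2. In AJ it averaged 0.43 ± 0.10 (SD, n = 8). WSB, the third wild-derived strain, came in between at -0.12 ± 0.14 (SD, n = 8), and 129 stood at 0.07 ± 0.08. The 15 libraries of Cast and PWK reached at most -0.58, and the other 48 went no lower than -0.31. Per kb of transcript, Cox7a1 made up 45.75% of the pair in PWK, 47.4% in Cast and 67.0% in AJ. Neither gene has a near-identical copy in the table. The part of sequence differences between the strains and the reference in this ratio was not tested.

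**Figure D4:**
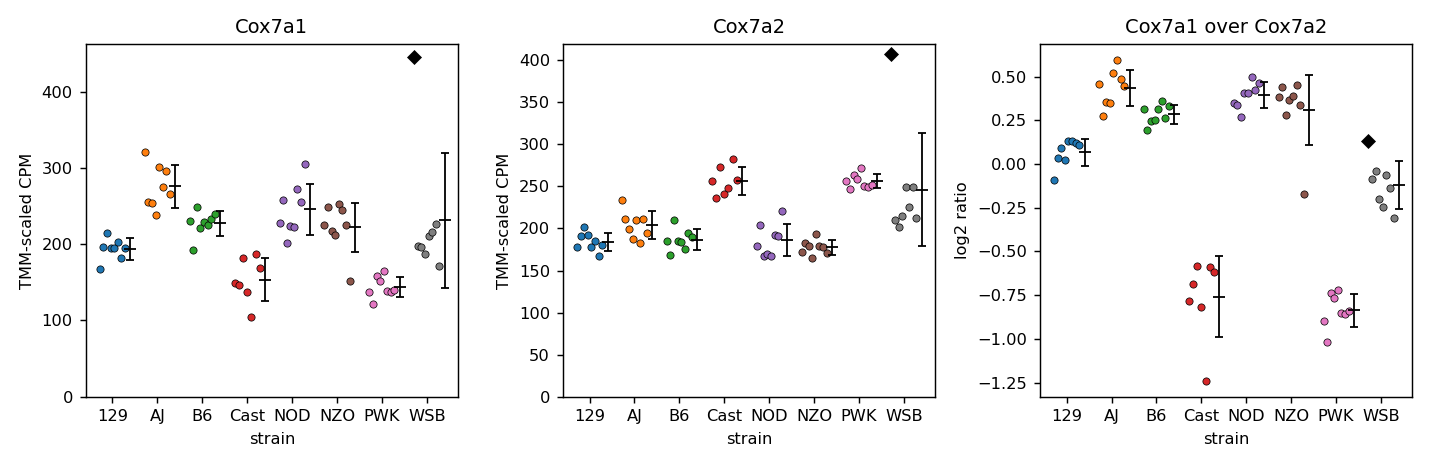
TMM-scaled CPM of Cox7a1 and Cox7a2 (left and middle, axes from 0) and their log2 ratio (right) in each library by strain, with bars for the mean ± SD of each strain and a diamond for WSB_1. Every Cast and PWK library has a log2 ratio of at most -0.58, and every other library one of at least -0.31.

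The log2 ratio of the Cox7a pair ranged over 1.27 log2 units between strain means, that of the Cox6a pair over 0.50 and that of the Cox8 pair over 0.58. Cox6a2, the striated muscle form of subunit 6a, made up 91.8% of its pair per kb in WSB and 94.0% in B6. Over all strains Cox6a2 did not pass with all libraries (edgeR adjusted p = 0.114). Without WSB_1 it passed in Cast (0.15 higher, edgeR adjusted p = 0.00306) and NZO (-0.135, adjusted p = 0.00864). Cox8b, the muscle form of subunit 8, had 2.12 times the CPM of Cox8a in Cast and 3.17 times in 129. The difference came with Cox8a, which was 0.44 ± 0.05 higher in Cast (adjusted p = 6.81e-11, median 79.7 CPM, 67.3 to 93.7), while Cox8b changed by 0.00 ± 0.10 there. In WSB, Cox8b was 0.26 higher at an adjusted p of 0.0137 in edgeR, a call that was lost without WSB_1 (-0.01, adjusted p = 0.954). The WSB calls of Cox4i1, Cox4i2, Cox6b1, Cox8a and Ndufa4l2 were also lost without it. The changes then stood at 0.06 for Cox4i1, 0.04 for Cox4i2, 0.06 for Cox6b1 and 0.10 for Cox8a. Ndufa4l2 moved little, from 0.23 with WSB_1 (edgeR adjusted p = 0.0211) to 0.185 without it (adjusted p = 0.0773).

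The forms of complex IV known from other tissues or from low oxygen were scarce in these hearts. Cox4i2, known as the lung and hypoxia form of subunit 4, had medians between 2.757 CPM in NOD (1.645 to 3.30) and 5.43 in PWK (4.34 to 6.04). Cox4i1 had medians from 894 CPM in B6 to 1017 in Cast. Cox4i2 was 0.60 ± 0.10 higher in PWK (edgeR adjusted p = 7.44e-07) and changed by -0.57 ± 0.11 in NOD (adjusted p = 4.68e-05). Cox6b2, known as the testis form, had a median of 1.1 CPM in NOD (0.814 to 1.51), 0.114 in Cast and 0.0805 in PWK (0 to 0.154), and no library of Cast or PWK reached those of NOD. At these low levels its log2 ratio to Cox6b1 ranged over 3.42 log2 units between strains, and that of Cox4i2 to Cox4i1 over 1.04.

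Ndufa4l2 is a hypoxia-induced relative of Ndufa4, a complex IV subunit despite its name. Its median was 5.08 CPM in PWK (4.015 to 6.46), 7.78 in NZO (7.14 to 9.28) and 7.95 in B6 (6.92 to 9.1). All PWK libraries lay below all of NZO and B6, and the change in PWK was -0.52 ± 0.09 (edgeR adjusted p = 9.26e-07). Cox7a2l, which joins complexes III and IV into supercomplexes, was higher in AJ by 0.23 ± 0.04 (adjusted p = 2.57e-06), at a median of 181 CPM (169 to 187), and changed by -0.19 ± 0.04 in B6 (adjusted p = 0.000138). Cox5b, a subunit with 1 form only, was higher in Cast by 0.21 (edgeR adjusted p = 0.00668) and in PWK by 0.22 (adjusted p = 0.00343). Summed with its copy Gm11273, it stood at -0.01 and 0 in these strains (adjusted p = 0.932 and 0.993).

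Complex V, the ATP synthase, holds the most abundant members. Atp5b, its catalytic beta subunit (chr10:128083273-128090391, plus strand), had the highest level of all members per kb of transcript, at 1958 CPM per kb. Its median was 4733 CPM in Cast (4416 to 4815) and 3268 in NZO (2912 to 3432). Every Cast library lay above every other library. Atp5b was 0.38 ± 0.04 higher in Cast (edgeR adjusted p = 3.96e-12), and its change was -0.24 ± 0.04 in NZO (adjusted p = 2.81e-06) and -0.15 ± 0.04 in AJ (adjusted p = 0.00176). Its partner in the F1 head, Atp5a1, did not pass over all strains with all libraries (edgeR adjusted p = 0.0789). In WSB_1 Atp5a1 stood at 1742 CPM, and in the other WSB libraries at 3333 to 3767. Without WSB_1 it was higher in PWK by 0.12 (edgeR adjusted p = 0.000765) and in 129 by 0.09 (adjusted p = 0.00997). It then changed by -0.11 in NZO (adjusted p = 0.00188) and -0.08 in AJ (adjusted p = 0.0217).

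The c-ring through which protons pass is made from 3 genes that encode the same mature protein, Atp5g1, Atp5g2 and Atp5g3. Atp5g1 had 0.51 times the CPM of Atp5g3 in Cast and 0.62 times in PWK, with the other strains in between. Atp5g1 was higher in WSB by 0.22 ± 0.06 (edgeR adjusted p = 0.00117, and 0.0119 without WSB_1) and changed by -0.23 ± 0.06 in Cast (adjusted p = 0.00122).

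Atp5g2 had the widest range of all members at 4.26 log2 units. Its medians were 127 CPM in AJ, 121 in Cast, 118 in NOD and 136 in PWK, and 9.6 in 129, 6.95 in B6, 8.2 in NZO and 9.25 in WSB. The lowest library of the first 4 strains stood at 109 CPM and the highest of the last 4 at 13.9. The edgeR test called all 8 strains, from -2.46 ± 0.14 in B6 (adjusted p = 1.56e-22) to 2.36 ± 0.09 in PWK (adjusted p = 5.07e-31). Gm10175, a transcribed processed pseudogene at chr7:23946646-23947290, is identical to Atp5g2 over its 441 coding bases and showed the opposite pattern. Gm10175 took 112 to 129 CPM in 129, B6, NZO and WSB and at most 0.682 CPM in the other strains.

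Summed with this copy, Atp5g2 lay between 120 CPM in NOD and 138 CPM in 129, a range of 0.20 log2 units. Only 129 and PWK then passed the test, at 0.15 (edgeR adjusted p = 0.00188) and 0.11 higher (adjusted p = 0.0107), and 6 of the 8 comparisons lost their call. The counts of this pair lay mostly with one gene in 4 strains and with the other gene in the other 4. The first 60 coding bases, which no base distinguishes, are these.
Atp5g2: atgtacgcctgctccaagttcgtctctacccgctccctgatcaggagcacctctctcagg
Gm10175: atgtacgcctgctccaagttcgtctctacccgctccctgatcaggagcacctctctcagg

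**Figure D5:**
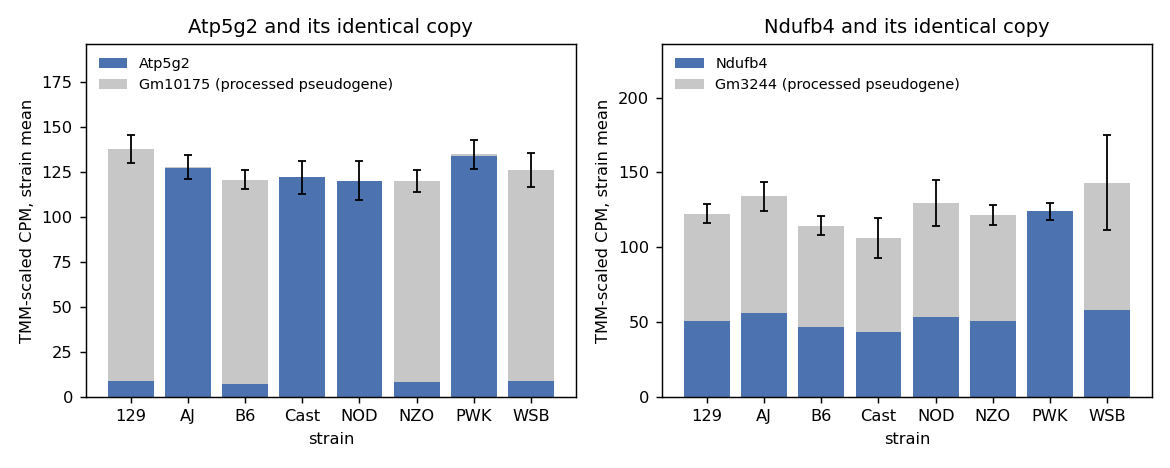
Mean TMM-scaled CPM of Atp5g2 and Ndufb4 (blue) stacked on their processed pseudogene copies Gm10175 and Gm3244 (grey) in each strain, with axes from 0 and error bars for the SD of the sum. The sum for Atp5g2 lies between 120 and 138 CPM while its blue part changes between strains, and the sum for Ndufb4 ranges over 0.43 log2 units.

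Copies bore on calls of some other members as well. Of the 90, 27 have a near-identical copy in the reference transcripts (95% identity or more, covering 50% or more of the shorter one), and for 9 a copy is in the count table. Among these 9 the range of strain means fell by more than 0.1 log2 units in the sum for Atp5g2 and Ndufb4 only. Calls were lost in the sum for Cox5b, Ndufab1 and Cox7a2l too. In Cast, Ndufab1 went from 0.13 (edgeR adjusted p = 0.02) to -0.11 (adjusted p = 0.0655). Cox7a2l in Cast went from -0.12 (adjusted p = 0.0157) to -0.03 (adjusted p = 0.621). For the other members with a copy, among them Ndufs5 and Ndufb9, no copy is in the count table, so no sum was possible.

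With all libraries, WSB_1 included, the 9 assembly factors had a median range of strain means of 0.54 log2 units, and the 81 subunits one of 0.34. Ndufaf6 lay at a median of 11.8 CPM in Cast (8.87 to 14.9), 4.55 in NOD (3.46 to 6.05) and 4.73 in AJ (3.84 to 5.96). No Cast library overlapped those of AJ or NOD. It was 0.89 ± 0.08 higher in Cast (edgeR adjusted p = 4.88e-16), and changed by -0.66 ± 0.08 in NOD (adjusted p = 9.73e-10) and -0.58 ± 0.08 in AJ (adjusted p = 3.54e-08). Ndufaf2, which helps to build complex I, was higher in NZO by 0.48 ± 0.08 (adjusted p = 5.45e-07), at a median of 10.9 CPM (9.21 to 12.3). It changed by -0.47 ± 0.09 in 129 (adjusted p = 1.2e-05), at 5.92 CPM (4.72 to 7.74), below all of NZO.

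Atp5sl, a factor for building the membrane arm of complex I despite its name, was high in WSB and PWK, at medians of 54 CPM (47.1 to 57.7) and 47.7 (45.6 to 53). Its medians were 28.2 to 36.5 in the other 6 strains, whose highest library stood at 41.25 in NOD. It was 0.69 ± 0.04 higher in WSB (edgeR adjusted p = 7.58e-23), 0.55 ± 0.04 higher in PWK (adjusted p = 1.58e-18), and lower by the test in 129, AJ, B6, Cast and NZO. Without WSB_1 the WSB difference was 0.70. Of the 9 assembly factors, 6 were higher and 2 lower in PWK (median change 0.20, background 27% and 26.7%). In 129 none was higher and 5 were lower (median -0.16, background of lower genes 14.4%), and in Cast 1 was higher and 5 lower (median -0.155, background 30.6% and 29.3%). Without WSB_1 these counts were the same in the 3 strains.

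Summed over each complex, the strains differed by a small margin. Complex I ranged from 6953 ± 446 CPM in NZO to 7766 ± 1392 in WSB (SD, n = 8 each), a ratio of 1.12, and complex III from 3395 ± 225 in PWK (n = 8) to 3987 ± 243 in Cast (n = 7). Complex IV ranged from 4714 ± 265 in NZO to 5666 ± 1560 in WSB (SD, n = 8 each), and complex V from 11730 ± 588 in NZO (n = 8) to 13370 ± 347 in Cast (n = 7). The WSB sums of complexes I and IV were 7294 and 5125 CPM without WSB_1. NZO was lowest in complexes I, IV and V, and its highest library in complex V (12370 CPM) lay below all of Cast (lowest 13120). The Cast sum of complex V was not shared by most of its genes. Of 15 members, 2 were higher in Cast, Atp5b and the copy-affected Atp5g2, and 5 lower (median change -0.10, background 30.6% and 29.3%). Without WSB_1 3 were higher and 7 lower (median -0.09, background 33.1% and 31.1%). Atp5b alone averaged 4687 CPM in Cast and 3235 in NZO. Complex II was lowest in Cast, at 946 ± 67.5 CPM (n = 7), and highest in AJ, at 1154 ± 53.9 (n = 8).

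The partner subunits encoded in the mitochondrial genome moved much more. All genes of the mitochondrial genome summed to 315700 ± 28150 CPM in B6 (SD, n = 8) and 165400 ± 12300 in PWK (n = 8), a ratio of 1.91. Of its 13 protein genes, 12 were higher in B6 (background 17.5%) and 12 higher in 129 (background 16.8%). In PWK 12 were lower (background 26.7%) and in NOD 10 (background 13.5%), with the same counts without WSB_1. In B6 the nuclear members leaned the other way, with 4 higher and 21 lower, and complex I summed to 6996 ± 289 CPM there. The other 3 strains were not alike in this. In 129, 7 nuclear members were higher and 12 lower, but 15 higher and 12 lower without WSB_1. PWK had 16 higher and 22 lower, the same side as its mitochondrial genes, and NOD had 9 higher and 7 lower. With scaling factors from genes outside the mitochondrial genome, 5 members were higher and 21 lower in B6.

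Within strains the subunits rose and fell together. Expressed as deviations from strain means, pairs of the 81 subunits had a median correlation of 0.73 over the 63 libraries and 0.75 over the 62 without WSB_1. The points share library, depth and RNA quality, so this is a description. Across the 8 strain means the median correlation of the same genes was 0.25. Assembly factors followed the subunits less over the 63 libraries, with a median of 0.29 within strains. Without WSB_1 their correlations with the subunits' median deviation ran from 0.08 for Ndufaf4 to 0.66 for Atp5sl. Of the 81 subunits, 76 were then over 0.5, but each subunit is itself part of that median and the assembly factors are not. The assembly factors also had low levels, with means from 7.1 CPM (Ndufaf6) to 53.4 (Ndufaf4). For the median of assembly factors outside the rule, the correlation with the subunit median was 0.29 with all libraries and 0.80 without WSB_1.

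With WSB_1 included, 6 subunits had a correlation below 0 with the subunit median, among them Ndufs1 at -0.51, Uqcrc2 at -0.38 and Atp5a1 at -0.35. Without WSB_1 it was 0.59 for Ndufs1 and 0.76 for Atp5a1, and no subunit but Cox6b2 was below 0. The median deviation of subunits in a library also tracked that of other genes under 1 kb, with a correlation of 0.94 over 63 libraries and 0.91 over the 62. NOD_8 and 129_3, at 0.28 and 0.15 in the members, also stood 0.20 and 0.15 above their strains in other short genes. The part of transcript length in the shared movement was not tested.

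Other measures moved with the subunit median as well, within strains. Over the 63 libraries its correlation was 0.64 with the median of the endothelial markers, 0.54 with the red cell markers, 0.33 with the cardiomyocyte markers and -0.60 with the transcriptional regulators of mitochondrial genes. It was 0.28 with total counts and 0.24 with the mitochondrial share of counts. Without WSB_1 the correlation was 0.21 with the endothelial markers, 0.38 with the red cell markers and 0.18 with the regulators, while it was 0.82 with the cardiomyocyte markers. These are descriptions over 63 and 62 libraries that share depth and RNA quality, and the part of cell makeup was not tested.

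Genes around the chain were counted from fixed lists, with all libraries and, where given, without WSB_1. Of 43 tested assembly factors outside the rule, 21 were higher in AJ and 4 lower (median change 0.13), 18 were higher in WSB and 6 lower (median 0.08), and 3 were higher in PWK and 17 lower (median -0.09). Without WSB_1 the counts of the 43 were 23 higher and 4 lower in AJ, 17 higher and 7 lower in WSB, and 5 higher and 20 lower in PWK. Of 18 electron carriers and other quinone reductases, 8 were lower in NZO and 3 higher, and without WSB_1 9 were lower and 4 higher. Of 17 transcriptional regulators of mitochondrial genes, 6 were higher and 5 lower in Cast, and 1 was higher and none lower in 129 and in B6. Without WSB_1 these counts were 7 higher and 5 lower in Cast, 1 and 2 in 129, and 2 and 3 in B6. The background shares for these strains are those given above.

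Markers of other cells were read beside these results. In Cast, where Atp5b and Uqcrc1 were highest, all 7 fibroblast markers were lower, with a summed level of 468.5 to 901 CPM against 887 to 1954 in the other strains. In NZO, where the sums of complexes I, IV and V were lowest, all 7 fibroblast markers were higher, at 1504 to 1954 CPM. Cardiomyocyte markers were mixed in Cast, with 3 of 15 higher and 6 lower, and in NZO, with 4 higher and 5 lower. Without WSB_1 the cardiomyocyte counts were 3 higher and 8 lower in Cast and 4 higher and 7 lower in NZO, and the fibroblast counts did not change. Skeletal muscle markers summed to 0.9265 to 7.54 CPM in every strain but Cast, where they reached 87.55, and cardiomyocyte markers to 62010 to 116400 CPM. The part of cell makeup in the members' strain differences was not tested.

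Starts of some members held short sequences known from other nuclear genes for mitochondria. RefSeq promoters on GRCm38.p6, 250 bases before to 50 after the start, were found for 71 of the 90 members and for 27025 genes in all. On either strand the letters GCATGCGC, the core of the site of nuclear respiratory factor 1 (NRF1), were in 12 of the 71 (16.9%) and in 3.05% of all genes. CCGGAAG, a site of the ETS factor GABP, was in 17 (23.9%) and in 9.93% of all genes. AAGATGGC, of YY1, was in 9 (12.7%), with 3.19% of all genes, and TCAAGGTCA, of the estrogen-related receptors, in 2 (2.82%), and in 126 of the 27025 genes. At least 1 of the 4 was in 33 members (46.5%) and 15.3% of all genes. The 27025 genes were not matched to the members for level of expression or base content. By complex, YY1 letters were in 7 of 32 members of complex I, while in complex IV 3 of 13 had the GABP letters and 1 the NRF1 letters.

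The 100 bases before the RefSeq start are shown for 3 named members whose stretch holds such letters and lies outside the annotated gene, so that the place of the match can be seen, and capitals mark the matching letters. The stretches are chr2:73911327-73911426 for Atp5g3, chr9:50603850-50603949 for Sdhd and chr2:119662835-119662934 for the assembly factor Ndufaf1, all on the minus strand of GRCm38.p6. Atp5g3 holds the receptor letters in reverse orientation, Sdhd the GABP letters in reverse orientation, and Ndufaf1 the GABP letters as written. A match is a description of the letters and not of binding.
Atp5g3: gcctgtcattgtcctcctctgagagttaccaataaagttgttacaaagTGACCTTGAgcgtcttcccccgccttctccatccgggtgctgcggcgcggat
Sdhd: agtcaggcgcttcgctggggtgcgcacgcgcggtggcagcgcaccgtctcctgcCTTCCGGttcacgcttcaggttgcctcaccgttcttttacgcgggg
Ndufaf1: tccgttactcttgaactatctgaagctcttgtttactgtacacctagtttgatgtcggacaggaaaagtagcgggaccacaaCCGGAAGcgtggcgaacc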

How the data were processed

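Heart RNA-seq of 63 mice was analysed from tables the authors deposited. The deposited count table holds expected counts per gene on GRCm38, of which 18.38% are not whole within 1e-06. A second deposited table, variance-stabilised, has log2 values and served as an alternative, and DESeq2 is named in the submitters' processing notes. For the aligner, the counter and strand use: not given in the sources used here. Counts were rounded and fitted in R 4.3.3 with edgeR 4.0.16 (filterByExpr with a minimum count of 10, TMM, robust quasi-likelihood, 55 residual degrees of freedom). Each strain was set against the unweighted mean of the other 7, with Benjamini-Hochberg adjustment over 16425 genes at 0.05, and the prior count for log2 CPM was 2. Log2 ratios of isoforms had 0.05 CPM added to each value. Alternatives used DESeq2 1.42.0, limma 3.58.1 and copies found with blastn 2.17.0. Transcript lengths are medians over coding transcripts in the basic set of GENCODE M21. The fit was tested on simulated data. The members, lists and named genes were chosen with earlier results of these data known. Named were, per strain, up to 3 largest changes in each direction past the test, the 10 widest ranges of strain means at a mean log2 CPM of at least 1, members with no overlap for 1 strain, and the isoform and core genes, of which 1 is not reported here. Cox5b, Atp5a1, Ndufs8, Uqcrc2 and Gm11273 were named after their values were seen. The depth of 21.79 M to 42.95 M counts limits precision most for members near 1 CPM.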

Additional observations from a re-analysis of the deposited data

Results flagged for a closer look

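Within each strain, the highest or lowest library was compared with its nearest neighbour for 328 groups of values, and 52 values stood apart from the rest of their strain by Dixon's ratio. Chance would mark about 1 in 20 independent groups. These groups share libraries and move together, and many of the genes were named for their values in these data, so this rate is no measure for the 52. All values are TMM-scaled CPM, and 26 of the 52 were in WSB_1.

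In WSB_1 summed complex I (11070), summed complex III (4652), summed complex IV (9452), Atp5g3 (1310), Cox4i1 (1721), Cox4i2 (8.811), Cox6a1 (79), Cox6a2 (1149) and Cox6b1 (610.3) stood above the other libraries of the strain. Also in WSB_1 Cox7a1 (445.4), Cox7a2 (407), Cox8a (92.57), Cox8b (431.7), Ndufa3 (275.1), Ndufa4 (783.1), Ndufaf2 (12.72), Ndufb4 (81.73) and Ndufb9 (563.6) stood above the other libraries of the strain. Also in WSB_1 Ndufs5 (241.1) and Sdhb (539.7) stood above the other libraries of the strain. In WSB_1 Atp5b (2813), Atp5c1 (485.2), Ndufaf1 (27.61), Ndufs1 (222.5), Sdhc (250.4) and Sdhd (118.6) stood below the other libraries of the strain. In 129_3 summed complex IV (5533), summed complex V (14470), Atp5b (4311), Atp5c1 (894), Cox4i1 (1096), Cox6a2 (650.6) and Ndufv1 (603) stood above the other libraries of the strain. In NZO_8 summed complex II (919), summed complex V (10490), Atp5g1 (346), Atp5g3 (681.4), Cox7a1 (151.4), Ndufaf1 (23.36), Sdhb (318.2) and Uqcrc1 (611.4) stood below the other libraries of the strain. Also in NZO_8 Uqcrfs1 (408.1) stood below the other libraries of the strain. In B6_2 summed complex II (929.9), Cox6a2 (518.3), Ndufa4 (309.2), Sdhb (394.9) and Uqcrfs1 (476.7) stood below the other libraries of the strain. In Cast_7 summed complex V (14110) stood above the other libraries of the strain. In AJ_8 summed assembly factors (208) stood above the other libraries of the strain. In AJ_3 Atp5sl (27.2) stood below the other libraries of the strain. In NOD_2 Cox6b2 (1.506) stood above the other libraries of the strain. In NZO_5 Cox7a2l (188.7) stood above the other libraries of the strain.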

How the results depend on the processing

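With a correction for transcript length, added after the data were seen, the members called were 34 in 129, 36 in AJ, 27 in NOD and 49 in NZO. With that correction and without WSB_1 they were 39 in 129, 46 in AJ, 38 in B6, 67 in Cast, 34 in NOD, 58 in NZO and 60 in PWK. Without WSB_1 alone, 35 were called in AJ, 38 in B6 and 30 in WSB. With 1 library left out at a time, the counts ran from 17 to 35 in AJ, 23 to 38 in B6 and 30 to 56 in WSB. The cause of these moves was not tested. Summed with near-identical copies, the direction of Atp5g2 turned in 129 (0.145), Cast (-0.053), NOD (-0.079) and WSB (0.002), and Ndufb4 in PWK stood at -0.000. Of 546 values of named members under the other settings, 531 kept their direction and side of the threshold and 10 lost their call. Without Cast and PWK the lost calls were Cox6b2 in B6, NZO and WSB, Ndufa4l2 in B6 and NZO, and Cox7a2 in NOD. With 1 library left out, 2957 of 2961 values kept both, and the exceptions were Ndufa4l2 in B6 without B6_3 or B6_7 and Atp5c1 in WSB without WSB_1 or WSB_4. With the replicate number as a block, 74 members passed over all strains, and no count of calls per strain moved by over 1.5 times. Between strains, deviations of same-numbered libraries had a mean correlation of 0.042 (-0.162 to 0.377), and those of other-numbered libraries one of -0.005 (-0.295 to 0.353). There was no test between these values.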
